A study of Homo sapiens with 15 samples.

Results

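The 8 genes described here encode proteins that activate the decay of messenger RNA. They are ZFP36, ZFP36L1 and ZFP36L2 of the ZFP36 family, BTG1, BTG2 and BTG3 of the BTG family, and TOB1 and TOB2 of the TOB family. They were taken by gene name from a count table of 58676 genes, in which each of the 8 names occurred once, and all 8 were among the 14461 genes that passed a filter on low counts. The cells were of PATU-8988T, a long-established line from a human pancreatic cancer. They received THZ1 at 100 nM for 4 h or 24 h, YKL-5-124 at 100 nM for 4 h or 24 h, or 0.1% DMSO, the vehicle control, with 3 RNA-seq libraries in each of the 5 groups and 15 in all. Both compounds are described by the series as CDK7 inhibitors. CDK7 is the kinase of the transcription factor TFIIH that phosphorylates RNA polymerase II, and THZ1 is also known to act on CDK12 and CDK13. No time is given for DMSO, and its 3 libraries served as control at both times, so effects of time in culture and of treatment time cannot be told apart. Whether replicates are separate cultures is not stated, and a p-value therefore reflects the spread of these libraries alone, which may be technical.

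Most mRNAs are destroyed after their poly(A) tail is shortened, chiefly by the CCR4-NOT deadenylase complex. ZFP36 proteins (ZFP36 is also called tristetraprolin) have paired zinc fingers that bind AU-rich elements in 3' untranslated regions and bring CCR4-NOT to that mRNA. BTG and TOB proteins share an N-terminal domain that binds the CAF1 deadenylase subunits, encoded by CNOT7 and CNOT8; the TOB proteins also bind the cytoplasmic poly(A)-binding protein. Several of these genes are themselves induced rapidly by growth factors, stress or p53, and their mRNAs are short-lived. ZFP36 protein is known to bind its own mRNA.

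The AU-rich site of each ZFP36 paralog is shown first because the 3 share its nonamer. The nonamer was not found in the 3' untranslated regions scanned for the other 5 genes. The letters are the sense strand of the 3' untranslated region (GENCODE 29 transcripts, GRCh38), and capitals mark the nonamer TTATTTATT, the preferred ZFP36 binding sequence written as DNA.
ZFP36 (chr19:39409196-39409225, plus strand): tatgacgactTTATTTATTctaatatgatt
ZFP36L1 (chr14:68788076-68788105, minus strand): aactgttggaTTATTTATTttagaaattcc
ZFP36L2 (chr2:43223447-43223476, minus strand): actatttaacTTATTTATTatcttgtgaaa
The nonamer occurred 1 time in the 3' untranslated region of each of these 3 mRNAs. It was not found in that region of the principal coding transcripts of the 5 BTG and TOB genes. Other parts of the transcripts, and other transcripts of each gene, were not scanned for it or for the shorter motifs. It was present in 8.92% of 11900 tested protein-coding genes with a 3' untranslated region. The heptamer TATTTAT, which lies within the nonamer, occurred 3 times in each ZFP36 paralog, 2 times in BTG3, 1 time each in BTG1, BTG2 and TOB2 and 0 times in TOB1; it was present in 34.0% of the 11900. The shorter pentamer ATTTA, which lies within the nonamer, was present in all 8 genes and in 71.8% of the 11900. Its density was 7.01 per kb of 3' untranslated region in ZFP36, 6.82 in BTG3, 5.28 in TOB1, 4.28 in ZFP36L1 and 2.61 in ZFP36L2, against a median of 1.69 over all genes. BTG1 (1.32 per kb), TOB2 (1.06) and BTG2 (0.924) lay under that median. A match describes the letters and is not evidence of binding.

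The genes are also alike in being compact. In those transcripts 7 of the 8 had 2 exons and BTG3 had 5, while the median tested gene had 9 exons and 6.63% of tested genes had at most 2. In GRCh38 as the count table gives it, ZFP36 (ENSG00000128016) lies at chr19:39406813-39409412 on the plus strand, ZFP36L1 (ENSG00000185650) at chr14:68787660-68796253 on the minus strand and ZFP36L2 (ENSG00000152518) at chr2:43222402-43226609 on the minus strand. BTG1 (ENSG00000133639) lies at chr12:92140278-92145897 on the minus strand, BTG2 (ENSG00000159388) at chr1:203305491-203309602 on the plus strand and BTG3 (ENSG00000154640) at chr21:17593653-17612947 on the minus strand. TOB1 (ENSG00000141232) lies at chr17:50862223-50867978 and TOB2 (ENSG00000183864) at chr22:41433492-41447023, both on the minus strand. Whether counting used strand is not stated, so reads of overlapping genes cannot be assigned with certainty. BTG3 overlaps AP000432.1 on the opposite strand, which held 153 counts over the 15 libraries against 14194 for BTG3. TOB1 overlaps TOB1-AS1 (45 counts against 5739); an antisense RNA over BTG1 held 29 counts against 3141 for BTG1. The pseudogene TOB2P1 held 216 counts against 10659 for TOB2, and reads shared by the pair are uncertain.

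Libraries held 15567057 to 22869590 counts. Values are CPM, counts scaled to a common library size by TMM, edgeR's trimmed mean of M-values. Fold changes are edgeR estimates on the log2 scale with an approximate standard error. That error was sized to match the p-value of edgeR's test, which gives none itself. Ribosomal protein mRNAs took 21.9% ± 1.18 of counts after THZ1 for 24 h, against 10.6% ± 1.43 in DMSO (SD, n = 3 each), so a level in those libraries depends strongly on the scaling. Mitochondrial genes took 3.46% to 4.44% of counts after THZ1 for 24 h and 0.862% to 1.25% in DMSO. Within groups, single libraries stood apart by the chi-square per degree of freedom between replicates. It was 53.1 and 59.6 for DMSO replicate 2 against the other two, which differed by 4.72. It was 39.2 and 53.4 for YKL-5-124 24 h replicate 3, 48.1 and 82.4 for THZ1 4 h replicate 1, 38.9 and 42.5 for YKL-5-124 4 h replicate 1, and 23.7 and 28.7 for THZ1 24 h replicate 1. Against DMSO at 24 h of THZ1, the median of all genes moved relative to TMM by 0.32 with RLE factors, 0.39 with upper-quartile factors, −1.12 with library totals and −2.18 with ribosomal protein mRNAs as the reference. The shifts at 4 h were 0.08, 0.02, −0.26 and −0.52. For YKL-5-124 at 24 h they were 0.15 with library totals and 0.59 against ribosomal protein mRNAs. The split of calls moved with them. Genes higher and lower numbered 2439 and 3630 at THZ1 4 h, but 583 and 4631 with library totals, and 29 and 5531 when ribosomal protein mRNAs were the reference. At THZ1 24 h they numbered 4668 and 6356, but 2266 and 9384, and 566 and 11743, with those scalings. At YKL-5-124 24 h they numbered 1290 and 1839, but 1759 and 1382 with upper-quartile factors, 2093 and 1186 with library totals, and 5092 and 199 when ribosomal protein mRNAs were the reference. As a check of the cell type, the epithelial markers KRT8, KRT18 and EPCAM were detected in every library, whereas KRT19 had 3 counts in all and CDH1 was at 0.193 to 0.295 CPM in DMSO. The 6 epithelial and ductal markers summed to 2727 to 3556 CPM after THZ1 for 24 h and 1352 to 1640 CPM in DMSO. The 6 stromal markers summed to 2.66 to 9.09 CPM and 1.55 to 2.44 CPM in the same groups, and the 6 leukocyte markers to 0.725 to 2.35 CPM and 0.126 to 0.222 CPM. CD3E, CD68, INS, GCG and SST were at 0 in every library. The part of the marker and mitochondrial differences in the results was not tested.

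Of the 8 genes, 7 fell and 0 rose after THZ1 for 4 h against DMSO, with BTG3 the exception, by edgeR's quasi-likelihood test at an adjusted p under 0.05. Over all tested genes 25.1% fell and 16.9% rose in that comparison. The 8 genes, and the lists further below, were chosen with earlier results of these data known. The background shares are therefore a description and not a test of enrichment. After THZ1 for 24 h 2 of the 8 rose (ZFP36 and BTG3) and 4 fell (BTG1, BTG2, TOB1 and TOB2), against backgrounds of 32.3% and 44.0%. After YKL-5-124 for 4 h 0 rose and 0 fell, against backgrounds of 0.0553% and 0.463%; at an unadjusted p under 0.05 there were 1 higher and 3 lower, and DESeq2 also called 0. After YKL-5-124 for 24 h 2 rose (TOB1 and BTG2) and 0 fell, against backgrounds of 8.92% and 12.7%. No other gene of the 8 was lower at an unadjusted p under 0.05 there, and DESeq2 called 2 higher and 0 lower. The count at 0 for rises after THZ1 for 4 h was also 0 at an unadjusted p under 0.05 and with DESeq2. The median log2 fold change of the 8 was −2.01 after THZ1 for 4 h, where that of all genes was 0.00, and −0.39 after THZ1 for 24 h, where that of all genes was −0.37. It was −0.28 and 0.23 after YKL-5-124 for 4 h and 24 h, where the medians of all genes were 0.00 and −0.04. In bulk RNA, fewer cells and less RNA per cell cannot be told apart.

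**Figure D1:**
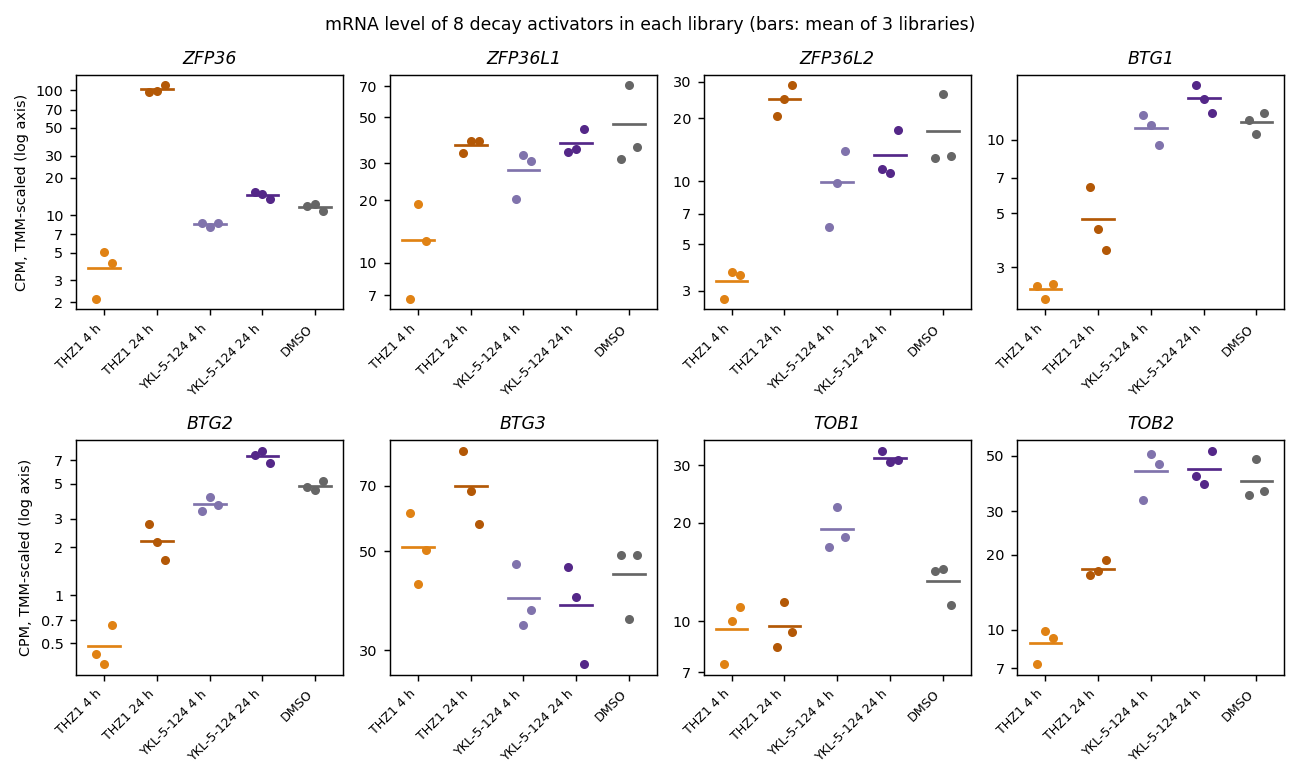
Level of each gene in CPM (TMM-scaled, log axis) in every library, by group; points are single libraries and bars the mean of 3. ZFP36 stands at 97.8 to 109.9 CPM after THZ1 for 24 h and at 2.14 to 5.04 CPM after THZ1 for 4 h, on either side of the 10.8 to 12.4 CPM of DMSO.

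ZFP36, the founding member of its family, had 2.14, 5.04 and 4.10 CPM after THZ1 for 4 h, and 11.8, 12.4 and 10.8 CPM in DMSO. All 3 treated libraries lay under all 3 DMSO libraries. ZFP36 fell by 1.64 ± 0.21 on the log2 scale (adjusted p = 1.39e-05, edgeR). After THZ1 for 24 h the same gene had 97.8, 98.9 and 109.9 CPM, each far above the highest DMSO library. The log2 fold change against DMSO was 3.13 ± 0.20 (adjusted p = 1.32e-09, edgeR), an 8.76-fold higher level with a 95% interval of 6.51 to 11.8. After YKL-5-124 ZFP36 had 8.67, 8.08 and 8.67 CPM at 4 h and 15.2, 14.7 and 13.4 CPM at 24 h. These libraries lay under and over all 3 DMSO libraries at the 2 times, but neither difference passed the test across all genes (−0.46 ± 0.19, adjusted p = 0.421, and 0.31 ± 0.19, adjusted p = 0.276, edgeR). Against ribosomal protein mRNAs the 24 h difference was called higher at 0.87.

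ZFP36L1 is a paralog with the same zinc-finger domain and a known role in the decay of cytokine and cell cycle mRNAs. It had 6.74, 19.3 and 12.7 CPM after THZ1 for 4 h, and 31.5, 71.0 and 36.0 CPM in DMSO. DMSO replicate 2 stood high, and the groups did not overlap. ZFP36L1 fell by 1.84 ± 0.34 on the log2 scale (adjusted p = 0.000492, edgeR). At 24 h ZFP36L1 had 33.7, 38.5 and 38.4 CPM, within the range of DMSO. The difference of −0.33 ± 0.33 did not pass (adjusted p = 0.378, 95% interval −1.03 to 0.38). It was called lower at −1.48 with library totals, at −2.60 against ribosomal protein mRNAs and at −0.43 with no filter, and it was close to 0 with RLE and upper-quartile factors. After YKL-5-124 it had 20.2, 32.9 and 30.8 CPM at 4 h and 34.2, 35.0 and 43.6 CPM at 24 h, both overlapping DMSO. The differences were −0.73 ± 0.33 (adjusted p = 0.479) and −0.30 ± 0.32 (adjusted p = 0.572, edgeR).

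ZFP36L2, the third paralog, had 2.75, 3.71 and 3.58 CPM after THZ1 for 4 h, and 12.9, 26.1 and 13.3 CPM in DMSO. The treated libraries lay well below DMSO, in which replicate 2 again stood high. ZFP36L2 fell by 2.38 ± 0.34 on the log2 scale (adjusted p = 4.44e-05, edgeR). At 24 h of THZ1 ZFP36L2 had 20.5, 24.7 and 28.8 CPM, which overlapped DMSO through that replicate. The difference of 0.50 ± 0.31 did not pass (adjusted p = 0.152), but its call and its sign depended on the scaling. It was called higher at 0.83 with RLE factors, 0.89 with upper-quartile factors, 0.83 with DESeq2, 0.56 with a transcript length covariate and 0.90 without DMSO replicate 2, and lower at −1.76 against ribosomal protein mRNAs. After YKL-5-124 the gene had 6.08, 9.78 and 13.9 CPM at 4 h and 11.5, 11.0 and 17.5 CPM at 24 h. Neither difference passed (−0.81 ± 0.31, adjusted p = 0.345, and −0.39 ± 0.31, adjusted p = 0.415, edgeR). At 4 h ZFP36L1 and ZFP36L2 were both called lower with no filter (−0.73 and −0.82) and with a transcript length covariate (−0.67 and −0.77). That covariate was drawn from the spread within groups of these same libraries, so its calls here and below are not separate support.

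BTG1, an antiproliferative gene of the BTG family, had 2.51, 2.23 and 2.56 CPM after THZ1 for 4 h, and 12.1, 10.6 and 12.8 CPM in DMSO. The groups were far apart and each was tight. BTG1 fell by 2.28 ± 0.21 on the log2 scale (adjusted p = 4.42e-07, edgeR). By 24 h of THZ1 it had 6.40, 4.29 and 3.55 CPM, between the 4 h libraries and DMSO with no overlap with either. It fell by 1.33 ± 0.21 against DMSO (adjusted p = 2.76e-05, edgeR). After YKL-5-124 the gene had 12.6, 11.5 and 9.51 CPM at 4 h, overlapping DMSO, and 16.8, 14.7 and 12.9 CPM at 24 h, all just above it. The differences of −0.08 ± 0.19 (adjusted p = 0.961) and 0.32 ± 0.19 (adjusted p = 0.244, edgeR) did not pass, but the second was called higher at 0.90 against ribosomal protein mRNAs.

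BTG2, a p53 target and immediate-early gene, was the least abundant of the 8. It had 0.427, 0.371 and 0.652 CPM after THZ1 for 4 h, which rest on 9, 7 and 14 counts, and 4.75, 4.53 and 5.18 CPM in DMSO, which rest on 107 to 123 counts. The deepest fall of the 8 genes was seen here. BTG2 fell by 3.29 ± 0.25 on the log2 scale (adjusted p = 6.32e-08, edgeR), a 9.80-fold lower level. By 24 h of THZ1 BTG2 had 2.78, 2.14 and 1.67 CPM, still under every DMSO library. It fell by 1.14 ± 0.23 against DMSO (adjusted p = 0.000277, edgeR). After YKL-5-124 it had 3.37, 4.13 and 3.65 CPM at 4 h, all under DMSO, and 7.56, 8.04 and 6.67 CPM at 24 h, all over it. The 4 h difference of −0.37 ± 0.20 did not pass (adjusted p = 0.607). At 24 h BTG2 rose by 0.62 ± 0.20 (adjusted p = 0.0337, edgeR), a call that was lost with no filter (0.62, adjusted p = 0.137). It was also lost without DMSO replicate 1 (0.61), DMSO replicate 2 (0.58), DMSO replicate 3 (0.68), YKL-5-124 24 h replicate 1 (0.61) or YKL-5-124 24 h replicate 2 (0.56), at adjusted p of 0.0725 to 0.119.

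BTG3, which has the 4-exon coding region of a more distant branch of the BTG family, was the exception among the 8. It had 61.0, 42.3 and 50.2 CPM after THZ1 for 4 h, and 49.1, 35.1 and 49.0 CPM in DMSO. The groups overlapped and the difference of 0.20 ± 0.21 did not pass (adjusted p = 0.453, 95% interval −0.24 to 0.64); against ribosomal protein mRNAs it was called lower at −0.31. The 24 h libraries of THZ1 had 84.1, 68.3 and 57.6 CPM, all above DMSO. It rose by 0.66 ± 0.21 with TMM (adjusted p = 0.00992, edgeR), while it was called lower at −0.47 with library totals and at −1.52 against ribosomal protein mRNAs, and the call was lost without DMSO replicate 2 (0.49, adjusted p = 0.0537). After YKL-5-124 it had 46.7, 34.1 and 36.9 CPM at 4 h and 46.0, 39.5 and 27.9 CPM at 24 h, both overlapping DMSO. The differences were −0.18 ± 0.21 (adjusted p = 0.904) and −0.23 ± 0.21 (adjusted p = 0.477, edgeR); the second was called lower at −0.24 with a transcript length covariate and higher at 0.34 against ribosomal protein mRNAs.

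TOB1, an antiproliferative protein that links CCR4-NOT to the poly(A)-binding protein, was the gene of the 8 with the largest rise after YKL-5-124. It had 16.8, 22.3 and 18.1 CPM after YKL-5-124 for 4 h and 33.3, 30.6 and 31.1 CPM after 24 h, against 14.3, 14.5 and 11.2 CPM in DMSO. All treated libraries lay above all DMSO libraries at both times. The 4 h difference of 0.52 ± 0.17 did not pass across all genes (adjusted p = 0.240, unadjusted p = 0.0086), and it was called at 0.52 with a transcript length covariate. At 24 h TOB1 rose by 1.25 ± 0.17 (adjusted p = 0.000164, edgeR), a 2.37-fold higher level with a 95% interval of 1.84 to 3.06. After THZ1 the gene had 7.40, 10.0 and 11.1 CPM at 4 h and 8.33, 11.4 and 9.29 CPM at 24 h. The 4 h libraries all lay under the lowest DMSO library, the closest of them narrowly, while the 24 h libraries overlapped DMSO. The falls of 0.49 ± 0.17 (adjusted p = 0.0353) and 0.46 ± 0.18 (adjusted p = 0.0315, edgeR) on the log2 scale were near the threshold. The 4 h call was lost with RLE factors (−0.41), with no filter (−0.49) and with only the groups compared (−0.50). Leaving out 1 library also lost it, at −0.43 for DMSO replicate 1, −0.42 for DMSO replicate 2, −0.34 for THZ1 4 h replicate 1 and −0.52 for THZ1 4 h replicate 2. The 24 h call was lost with RLE (−0.13) or upper-quartile factors (−0.06), with DESeq2 (−0.13) and with only the groups compared (−0.29). Leaving out 1 library also lost it, at −0.42 for DMSO replicate 1, −0.41 for DMSO replicate 2, −0.33 for THZ1 24 h replicate 1 and −0.40 for THZ1 24 h replicate 3.

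TOB2, the paralog of TOB1, had 7.26, 9.86 and 9.26 CPM after THZ1 for 4 h, and 34.8, 48.4 and 36.1 CPM in DMSO. The groups were well separated. TOB2 fell by 2.18 ± 0.19 on the log2 scale (adjusted p = 3.45e-07, edgeR). At 24 h TOB2 had 16.5, 17.2 and 19.0 CPM, higher than at 4 h and still lower than any DMSO library. It fell by 1.18 ± 0.19 against DMSO (adjusted p = 3.85e-05, edgeR). After YKL-5-124 it had 33.1, 51.1 and 46.5 CPM at 4 h and 41.5, 38.6 and 52.6 CPM at 24 h, both overlapping DMSO. The differences of 0.13 ± 0.18 (adjusted p = 0.923) and 0.15 ± 0.18 (adjusted p = 0.609, edgeR) did not pass, with 95% intervals of −0.25 to 0.52 and −0.23 to 0.54.

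**Figure D2:**
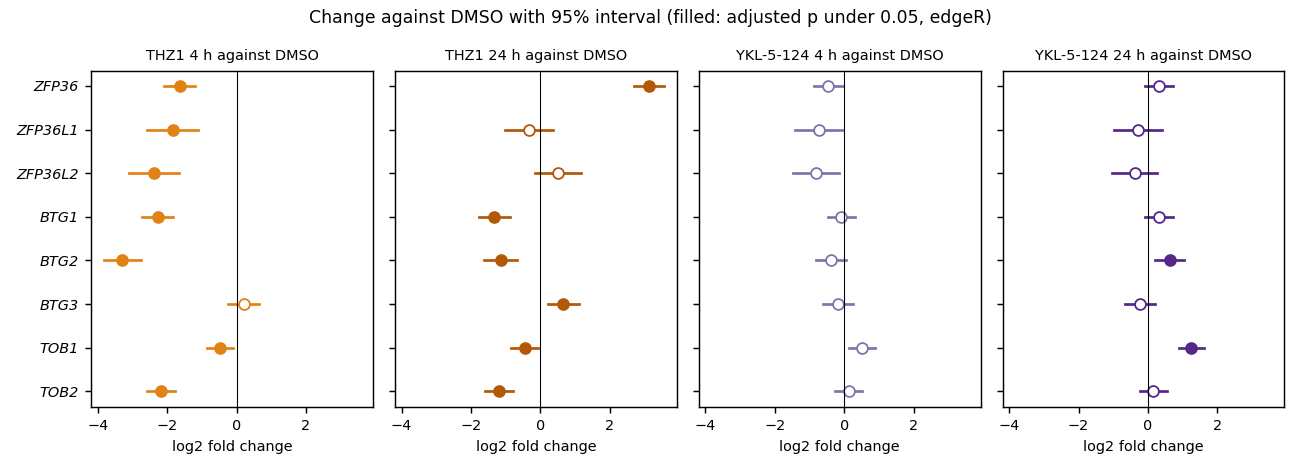
Log2 fold change of each gene against DMSO in the 4 treated groups, with its approximate 95% interval, sized to match the p-value of edgeR's test. Filled points have an adjusted p under 0.05. After THZ1 for 4 h 7 of the 8 points are filled and lie left of 0, and after YKL-5-124 for 4 h none is filled.

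**Figure D3:**
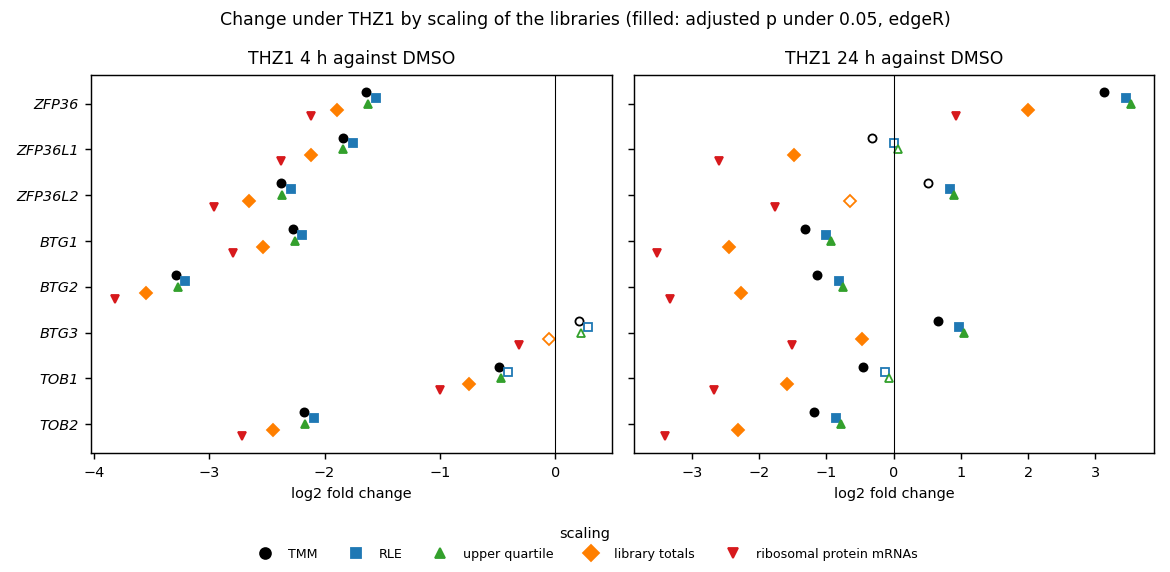
Log2 fold change against DMSO after THZ1 for 4 h and 24 h under 5 scalings of the libraries; filled points have an adjusted p under 0.05. At 24 h ZFP36 stays right of 0, and BTG1, BTG2 and TOB2 stay left of it, under each scaling, whereas ZFP36L1, ZFP36L2 and BTG3 have points on both sides.

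The following calls for THZ1 held under each of the 5 scalings in the plot of scalings. At 24 h ZFP36 was called higher (0.93 to 3.52) and BTG1, BTG2 and TOB2 were called lower. The fold changes of BTG1 ranged from −3.51 to −0.93, those of BTG2 from −3.33 to −0.75 and those of TOB2 from −3.41 to −0.79. At 4 h the 6 genes other than BTG3 and TOB1 were called lower under each of the 5.

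The compounds were then compared with each other at the same dose and time, in 16 tests over the 8 genes, with p-values adjusted over all 14461 genes. At 4 h, 7 of the 8 were lower and 0 were higher in THZ1 than in YKL-5-124, against backgrounds of 21.9% and 11.4%; at an unadjusted p under 0.05 and with DESeq2 the counts were the same. Over all genes 1649 were higher and 3172 lower, but 2524 and 2884 with RLE factors, 199 and 4168 with library totals, and 26 and 4461 when ribosomal protein mRNAs were the reference. BTG2 differed most (−2.92 ± 0.25, adjusted p = 3.26e-07), then TOB2 (−2.31 ± 0.19, adjusted p = 2.69e-07) and BTG1 (−2.20 ± 0.21, adjusted p = 8.09e-07, edgeR). The paralogs of the ZFP36 family were 1.12 to 1.56 lower on the log2 scale, that is −1.18 ± 0.21 for ZFP36, −1.12 ± 0.34 for ZFP36L1 and −1.56 ± 0.33 for ZFP36L2. The call of ZFP36L1 (adjusted p = 0.0185) was lost without THZ1 4 h replicate 1 (−0.82), THZ1 4 h replicate 3 (−1.12), YKL-5-124 4 h replicate 2 (−0.98) or YKL-5-124 4 h replicate 3 (−1.04). TOB1, which was under DMSO in one compound and over it in the other, was −1.01 ± 0.17 (adjusted p = 0.000396, edgeR). For BTG3 the difference of 0.38 ± 0.21 did not pass (adjusted p = 0.171, 95% interval −0.06 to 0.82), and it was called with the replicate number as a block and with a transcript length covariate, at 0.38 in both.

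At 24 h, 3 of the 8 were higher and 4 were lower in THZ1 than in YKL-5-124, against backgrounds of 31.8% and 44.1%. Over all genes 4601 were higher and 6376 lower, but 1998 and 9927 with library totals, and 273 and 12953 when ribosomal protein mRNAs were the reference. ZFP36 was 2.82 ± 0.20 higher (adjusted p = 3.63e-09, edgeR), a 7.07-fold difference with a 95% interval of 5.28 to 9.47, although against ribosomal protein mRNAs it was 0.06 and not called. ZFP36L2 (0.89 ± 0.31, adjusted p = 0.0175) and BTG3 (0.89 ± 0.21, adjusted p = 0.00125) were also higher, and both turned negative under library totals, at −0.40 and −0.39, and when ribosomal protein mRNAs were the reference, at −1.93 and −1.86. The ZFP36L2 call was lost without THZ1 24 h replicate 3 (0.78), YKL-5-124 24 h replicate 1 (0.78) or YKL-5-124 24 h replicate 2 (0.75). BTG2 (−1.76 ± 0.22), TOB1 (−1.71 ± 0.18), BTG1 (−1.65 ± 0.21) and TOB2 (−1.33 ± 0.19) were lower, at adjusted p of 1.12e-05 or less by edgeR. ZFP36L1 did not differ past the threshold (−0.03 ± 0.33, adjusted p = 0.943, 95% interval −0.73 to 0.68), but it was lower with library totals (−1.31) and against ribosomal protein mRNAs (−2.83).

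Between the 2 times under THZ1, 6 of the 8 were higher at 24 h than at 4 h and 0 were lower, against backgrounds of 31.4% and 35.7%; no gene of the 8 was lower at an unadjusted p under 0.05, and DESeq2 called 7 higher and 0 lower. Over all genes 4543 were higher and 5166 lower, but 5750 and 3921 with upper-quartile factors, 2292 and 8175 with library totals, and 750 and 10393 when ribosomal protein mRNAs were the reference. ZFP36 stood 4.77 ± 0.22 higher at 24 h (adjusted p = 1.26e-10, edgeR), a 27.3-fold difference with a 95% interval of 19.6 to 37.9. ZFP36L2 (2.88 ± 0.34), BTG2 (2.15 ± 0.28) and ZFP36L1 (1.52 ± 0.34) followed, then TOB2 (1.00 ± 0.20) and BTG1 (0.95 ± 0.22), at adjusted p of 0.00132 or less by edgeR. With library totals ZFP36L1 (0.64), TOB2 (0.13) and BTG1 (0.08) were not called. Against ribosomal protein mRNAs BTG2 was not called (0.49), ZFP36L1 was −0.22, TOB2 −0.69 and BTG1 −0.72, and ZFP36 and ZFP36L2 were still called higher. BTG3 (0.45 ± 0.21, adjusted p = 0.0672) and TOB1 (0.03 ± 0.18, adjusted p = 0.893) did not pass with TMM. BTG3 was called higher with RLE (0.69) or upper-quartile factors (0.82), with DESeq2 (0.69), with only the groups compared (0.47), with the replicate block (0.45), with a transcript length covariate (0.45) and without THZ1 24 h replicate 3 (0.60) or THZ1 4 h replicate 1 (0.62), and lower against ribosomal protein mRNAs (−1.21). TOB1 was called lower with library totals (−0.84) and against ribosomal protein mRNAs (−1.66).

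Between the 2 times under YKL-5-124, 3 of the 8 were higher at 24 h and 0 were lower, against backgrounds of 9.22% and 11.9%; 0 were lower also at an unadjusted p under 0.05 and with DESeq2. Over all genes 1333 were higher and 1716 lower, but 2286 and 1044 with library totals, and 6777 and 130 when ribosomal protein mRNAs were the reference. BTG2 was 1.00 ± 0.20 higher (adjusted p = 0.00247), ZFP36 0.77 ± 0.19 (adjusted p = 0.0106) and TOB1 0.73 ± 0.17 (adjusted p = 0.00688, edgeR). BTG1 was 0.40 ± 0.19 (adjusted p = 0.147) and was called with library totals (0.57), against ribosomal protein mRNAs (1.07) and with a transcript length covariate (0.39). ZFP36L1 was 0.43 ± 0.33 (adjusted p = 0.393) and was called with that covariate (0.46). ZFP36L2 (0.43 ± 0.31), TOB2 (0.02 ± 0.18) and BTG3 (−0.05 ± 0.21) did not pass, though BTG3 was called higher at 0.60 against ribosomal protein mRNAs.

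The change between times was tested for a difference between compounds with an interaction term, THZ1 minus YKL-5-124, which was positive for 4 of the 8 and negative for 1, against backgrounds of 26.6% and 31.0%. Over all genes it was positive for 3842 and negative for 4489, but for 4706 and 3536 with upper-quartile factors, 1558 and 7917 with library totals, and 195 and 11377 when ribosomal protein mRNAs were the reference. It was positive for ZFP36 (4.00 ± 0.28, adjusted p = 2.08e-08), ZFP36L2 (2.45 ± 0.46, adjusted p = 0.000289), BTG2 (1.16 ± 0.34, adjusted p = 0.00846) and TOB2 (0.98 ± 0.27, adjusted p = 0.00525, edgeR). For TOB1, the one gene of the 8 with the opposite sign, it was −0.70 ± 0.25 (adjusted p = 0.0256, edgeR). The ZFP36 interaction was positive and called under each scaling. That of ZFP36L2 was 0.06 and not called against ribosomal protein mRNAs, that of BTG2 was not called with library totals (0.13) or with no filter (1.05) and was −1.16 against ribosomal protein mRNAs, and that of TOB2 was −0.06 with library totals and −1.41 against ribosomal protein mRNAs. The TOB1 call was lost with RLE (−0.47) or upper-quartile factors (−0.38) and with DESeq2 (−0.47). It was also lost without THZ1 24 h replicate 1 (−0.57), THZ1 24 h replicate 3 (−0.64), THZ1 4 h replicate 3 (−0.54) or YKL-5-124 4 h replicate 1 (−0.63). ZFP36L1 (1.09 ± 0.47, adjusted p = 0.0591), BTG1 (0.55 ± 0.29, adjusted p = 0.115) and BTG3 (0.50 ± 0.29, adjusted p = 0.156) did not pass with TMM. With RLE factors all 3 were called, at 1.32, 0.78 and 0.74, while against ribosomal protein mRNAs all 3 were negative, at −1.34, −1.79 and −1.81 (the first not called). With library totals they were 0.05, −0.48 and −0.53, none of them called. ZFP36L1 was also called without THZ1 4 h replicate 2 (1.47) or YKL-5-124 4 h replicate 1 (1.26), and BTG1 without THZ1 24 h replicate 3 (0.75).

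Shares within each family need no scaling between libraries, since each library is its own total. Counts were divided by the exonic length given in the table and each gene taken as a percentage of its family. ZFP36 made up 78.7% ± 1.28 of the ZFP36 family after THZ1 for 24 h, 35.3% ± 1.68 after THZ1 for 4 h, 35.1% ± 7.47 after YKL-5-124 for 4 h, 40.1% ± 5.66 after YKL-5-124 for 24 h and 31.5% ± 7.80 in DMSO (SD, n = 3 each). Its lowest share after THZ1 for 24 h, 77.7%, was well over the highest in any other library, 43.7%. ZFP36L1 held 11.1% ± 0.620 after THZ1 for 24 h and 44.8% ± 5.82 in DMSO, and ZFP36L2 10.3% ± 1.03 and 23.7% ± 2.10. In the BTG family BTG3 held 97.0% ± 0.470 after THZ1 for 4 h, 94.5% ± 0.479 after THZ1 for 24 h, 82.1% ± 2.52 after YKL-5-124 for 4 h, 73.7% ± 2.96 after YKL-5-124 for 24 h and 82.0% ± 1.81 in DMSO. The shares after THZ1 lay above every DMSO library and those after YKL-5-124 for 24 h lay below every one (70.5% to 76.3%, against 80.0% to 83.5% in DMSO). In the TOB family TOB1 held 66.0% ± 2.07 after THZ1 for 4 h, 49.8% ± 4.27 after THZ1 for 24 h, 44.5% ± 3.33 after YKL-5-124 for 4 h, 56.6% ± 4.28 after YKL-5-124 for 24 h and 37.9% ± 4.06 in DMSO. The TOB1 share did not overlap DMSO (35.1% to 42.6%) after THZ1 at either time or after YKL-5-124 for 24 h, and it overlapped at YKL-5-124 for 4 h (41.3% to 48.0%). An exact permutation test of 3 against 3 libraries cannot give a p below 0.1, so no p is given for the shares.

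**Figure D4:**
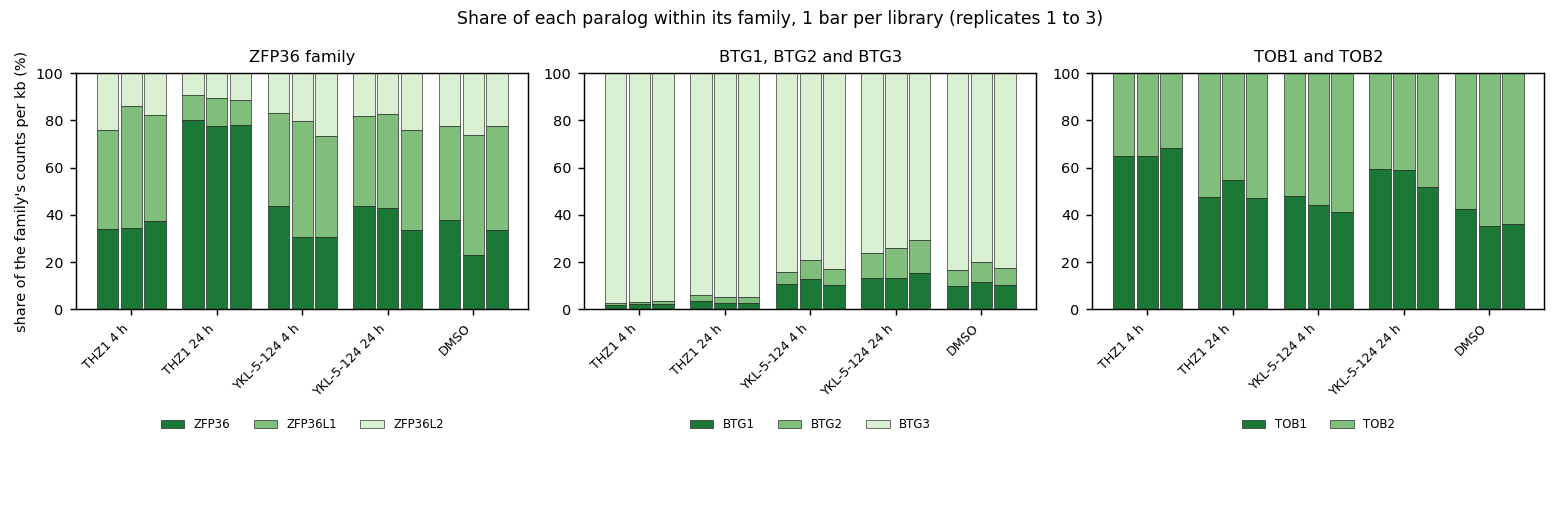
Share of each gene in the length-corrected counts of its family, in percent, with 1 bar per library and the 3 replicates of a group side by side. ZFP36 fills 77.7% to 80.1% of its family after THZ1 for 24 h and 22.8% to 38.0% in DMSO, while TOB1 holds 64.8% to 68.4% of the TOB pair after THZ1 for 4 h.

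Levels of different genes were compared as CPM per kb of exonic length. BTG3 stood highest in THZ1 4 h (22.2 ± 4.07 CPM per kb), YKL-5-124 4 h (17.0 ± 2.86), YKL-5-124 24 h (16.4 ± 3.98) and DMSO (19.3 ± 3.49). It was second after THZ1 for 24 h, at 30.3 ± 5.77 CPM per kb, where ZFP36 stood first at 50.9 ± 3.32, with no overlap between the 2 genes (SD, n = 3 each). In DMSO the order after BTG3 was ZFP36L1 (8.95 ± 4.19), TOB2 (8.71 ± 1.64), ZFP36 (5.80 ± 0.403), TOB1 (5.29 ± 0.714), ZFP36L2 (4.71 ± 2.03), BTG1 (2.44 ± 0.240) and BTG2 (1.75 ± 0.121 CPM per kb). The ranges of ZFP36L1 and TOB2 overlapped, as did those of ZFP36, TOB1 and ZFP36L2 from one to the next. Within single DMSO libraries ZFP36 stood above TOB1 in all 3, at 5.88 against 5.65, 6.16 against 5.74 and 5.37 against 4.46. The order of ZFP36L1 and TOB2, and that of TOB1 and ZFP36L2, changed between DMSO libraries. BTG2 was lowest in every group, from 0.175 ± 0.0538 CPM per kb after THZ1 for 4 h to 2.69 ± 0.252 after YKL-5-124 for 24 h. Its range overlapped that of BTG1 in both 24 h groups, although it lay under BTG1 in each single library of them. After THZ1 for 4 h TOB1 was second (3.77 ± 0.751), then ZFP36L1 (2.50 ± 1.21), TOB2 (1.93 ± 0.299), ZFP36 (1.87 ± 0.737), ZFP36L2 (0.906 ± 0.141) and BTG1 (0.501 ± 0.0371). The ranges from TOB1 through ZFP36 overlapped from one to the next. After THZ1 for 24 h ZFP36L1 (7.14 ± 0.532) and ZFP36L2 (6.68 ± 1.12) overlapped, as did TOB2 (3.85 ± 0.279) and TOB1 (3.84 ± 0.630), and BTG1 stood at 0.978 ± 0.305. After YKL-5-124 for 24 h TOB1 was second at 12.6 ± 0.564 CPM per kb and overlapped BTG3.

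Over the 15 libraries the likeness of 2 genes was measured as the root-mean-square difference of their log2 CPM, each centred on its own mean, so that smaller is more alike. Among the 8 genes BTG1 and TOB2 were the closest pair (0.37), followed by BTG1 and BTG2 (0.45) and ZFP36L1 and ZFP36L2 (0.48). The pair farthest apart was ZFP36 and BTG1 (1.82). The same-family pair TOB1 and TOB2 was at 0.60, and BTG3 was at 1.22 from BTG1. These are descriptions, since all genes share the same libraries and their depth.

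The upstream sequences of the closest pair, BTG1 and TOB2, and of ZFP36, the gene farthest from BTG1, are printed because these genes move together or apart in these data. Each is the 250 bases before the gene's start in RefSeq (GRCh38.p14), written in the direction of transcription. Those starts differ from the gene limits given above. By those limits most of the TOB2 window, with its GC boxes, lies inside the gene. So do the last bases of the BTG1 window, with its TATA box, and the last bases of the ZFP36 window. Capitals mark matches on either strand to 4 motifs, none of which overlap in these windows. They are the TATA box, spelled TATAAA, the CCAAT box, spelled as its name, the core of the cAMP response element, spelled TGACG, and the GC box, spelled GGGCGG.
BTG1 (chr12:92145847-92146096, minus strand): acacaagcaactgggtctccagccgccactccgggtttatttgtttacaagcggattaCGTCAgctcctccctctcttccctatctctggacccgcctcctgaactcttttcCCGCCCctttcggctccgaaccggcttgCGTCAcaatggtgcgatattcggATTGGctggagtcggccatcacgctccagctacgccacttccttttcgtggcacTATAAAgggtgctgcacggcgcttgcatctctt
TOB2 (chr22:41446802-41447051, minus strand): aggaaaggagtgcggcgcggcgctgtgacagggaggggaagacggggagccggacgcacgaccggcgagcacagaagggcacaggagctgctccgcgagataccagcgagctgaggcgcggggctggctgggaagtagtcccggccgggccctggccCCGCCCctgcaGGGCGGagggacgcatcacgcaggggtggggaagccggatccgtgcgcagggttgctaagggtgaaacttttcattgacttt
ZFP36 (chr19:39406597-39406846, plus strand): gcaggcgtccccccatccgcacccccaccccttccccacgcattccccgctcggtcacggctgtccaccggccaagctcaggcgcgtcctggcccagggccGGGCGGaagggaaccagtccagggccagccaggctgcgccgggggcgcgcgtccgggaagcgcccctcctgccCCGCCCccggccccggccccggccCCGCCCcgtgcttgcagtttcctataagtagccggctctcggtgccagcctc
BTG1 held 1 TATA box, 1 CCAAT box, 2 cAMP response element cores and 1 GC box, while TOB2 held 2 GC boxes and ZFP36 held 3, with no match to the other motifs in these windows. Of 35116 human promoter windows of the same length, 10.7% held TATAAA, 32.0% CCAAT, 21.2% TGACG and 42.6% GGGCGG on either strand. The GC box, the most common of the 4, was in both genes of the closest pair but also in ZFP36. It was in BTG2, BTG3 and a TOB1 window too, and not in ZFP36L1, so it does not set the pair apart. BTG1 was the one gene with TATAAA among the 7 of the 8 that have a RefSeq window. Matches are descriptions of letters, not binding sites.

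The genes most like each of the 8 were sought among 9131 further coding genes whose mean reached 5 CPM. For ZFP36 they were IER2, an immediate-early gene, at a distance of 0.40, and SETDB2 at 0.43. IER2 had log2 fold changes of −0.70 and 3.49 after THZ1 for 4 h and 24 h and of −0.22 and 0.38 after YKL-5-124. For BTG1 they were ADO (0.21) and RND3 (0.22), and RND3 was also the closest to BTG2 (0.36), ahead of ZNF607 (0.38). RND3 had log2 fold changes of −2.45 and −1.06 after THZ1 for 4 h and 24 h and of −0.10 and 0.50 after YKL-5-124. BTG3 had the nearest neighbours of all, PSMD10 (0.08), a proteasome assembly chaperone, and NT5C3B (0.10). ZFP36L1 was closest to ZNF347 and C17orf96 (0.31 each), ZFP36L2 to C5orf45 (0.39) and COG8 (0.41), TOB1 to DOK4 (0.30) and ZNF654 (0.31), and TOB2 to ZNF778 (0.22) and OTUD7B (0.23).

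Other genes of the mRNA decay pathway were counted in 8 lists against DMSO, where the shares called over all genes are those given above for the same comparisons. Rises after THZ1 depended on the scaling: against ribosomal protein mRNAs 0 genes of any list were higher at 4 h, and at 24 h the higher genes were 4 target mRNAs and 1 each in the decapping, AU-rich regulator and partner lists. The split after YKL-5-124 for 24 h also turned with that reference. The genes then called were 5 higher and 0 lower in the CCR4-NOT list, 3 and 0 in the PAN2-PAN3 list, 5 and 0 in the decapping list, 8 and 1 in the exosome list, 4 and 0 among the AU-rich regulators, 13 and 1 among the kinases, phosphatases and 14-3-3 genes, 11 and 0 among the target mRNAs and 1 and 0 among the partners. The counts that follow are with TMM. In the CCR4-NOT complex, the machine that the 8 proteins recruit, 6 of 12 genes fell and 0 rose after THZ1 for 4 h, with a median log2 fold change of −0.29. The largest fall was that of TNKS1BP1, a subunit, which had 7.10 CPM on average, against 22.2 in DMSO (−1.65 ± 0.26, adjusted p = 0.000144, edgeR). After THZ1 for 24 h 11 of the 12 fell and 0 rose, with a median of −2.15 where that of all genes was −0.37. CNOT6L, a catalytic deadenylase, averaged 1.32 ± 0.541 CPM, against 26.2 ± 1.21 in DMSO (−4.29 ± 0.19, adjusted p = 2.95e-11, edgeR). Picked after their values had been seen, for their contact with the 8 proteins, the scaffold CNOT1 (−2.51 ± 0.15) and the CAF1 subunits CNOT8 (−3.39 ± 0.23) and CNOT7 (−0.67 ± 0.17) all fell at adjusted p of 0.00256 or less. CNOT3 (0.08 ± 0.37, adjusted p = 0.844) was the one that did not. With DESeq2 9 fell and 0 rose, and at an unadjusted p under 0.05 0 rose at either time. After YKL-5-124 for 4 h 0 rose and 0 fell (0 and 1 at an unadjusted p under 0.05, and 0 and 1 with DESeq2), and after 24 h 0 rose and 1, CNOT2, fell (−0.40 ± 0.11, adjusted p = 0.0187), against 5 higher and 0 lower when ribosomal protein mRNAs were the reference. The CNOT2 call was lost with no filter (−0.40), with library totals (−0.25) and without DMSO replicate 1 (−0.38), DMSO replicate 3 (−0.37), YKL-5-124 24 h replicate 2 (−0.41) or YKL-5-124 24 h replicate 3 (−0.35), and it was 0.19 against ribosomal protein mRNAs.

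Among 8 genes of the PAN2-PAN3 deadenylase and the poly(A)-binding proteins, 3 rose and 1 fell after THZ1 for 4 h, 3 rose and 5 fell after THZ1 for 24 h, and 1 rose and 3 fell after YKL-5-124 for 24 h. PABPC1, the main cytoplasmic poly(A)-binding protein, averaged 3795 ± 882 CPM after THZ1 for 24 h, against 796 ± 247 in DMSO (2.25 ± 0.30, adjusted p = 5.99e-06, edgeR), and was 0.01 and not called against ribosomal protein mRNAs. PAN3 fell after THZ1 at both times (−0.62 ± 0.13 and −2.19 ± 0.14), and PAN2, the catalytic subunit, fell after YKL-5-124 for 24 h (−1.21 ± 0.14, adjusted p = 3.39e-05; −0.62 and not called against ribosomal protein mRNAs). PABPC4 rose after THZ1 for 4 h (0.52 ± 0.15), a call that was lost with library totals (0.26), against ribosomal protein mRNAs (0.01) and without THZ1 4 h replicate 2 (0.40) or THZ1 4 h replicate 3 (0.48). PAIP2 rose after YKL-5-124 for 24 h (0.63 ± 0.17), which was lost without DMSO replicate 2 (0.48), YKL-5-124 24 h replicate 1 (0.55) or YKL-5-124 24 h replicate 2 (0.57).

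Of 17 genes of decapping and decay from the 5' end, 2 rose and 5 fell after THZ1 for 4 h, 5 rose and 11 fell after THZ1 for 24 h, and 0 rose and 5 fell after YKL-5-124 for 24 h, where 0 rose also at an unadjusted p under 0.05 and with DESeq2, but 5 were higher and 0 lower against ribosomal protein mRNAs. DDX6, an RNA helicase that couples CCR4-NOT to decapping, averaged 9.84 ± 1.36 CPM after THZ1 for 24 h, against 132 ± 24.1 in DMSO (−3.75 ± 0.22, adjusted p = 4.66e-10, edgeR). EIF4ENIF1 fell most after THZ1 for 4 h (−2.09 ± 0.18) and LSM7 after YKL-5-124 for 24 h (−0.83 ± 0.21; −0.24 and not called against ribosomal protein mRNAs). LSM4, of the ring that binds shortened tails, rose after THZ1 for 24 h (2.49 ± 0.17). Its rise at 4 h (0.53 ± 0.16) was lost with library totals (0.27), against ribosomal protein mRNAs (0.02) and without DMSO replicate 2 (0.39) or THZ1 4 h replicate 1 (0.38).

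Of 16 genes of the exosome and SKI complex, which degrade from the 3' end, 5 rose and 4 fell after THZ1 for 4 h, 5 rose and 10 fell after THZ1 for 24 h, and 2 rose and 4 fell after YKL-5-124 for 24 h (8 and 1 against ribosomal protein mRNAs). EXOSC4 fell most after THZ1 for 4 h (−1.81 ± 0.26), EXOSC9 after THZ1 for 24 h (−3.01 ± 0.20) and EXOSC8 after YKL-5-124 for 24 h (−1.22 ± 0.14). TTC37, a SKI subunit, rose after THZ1 at both times (0.62 ± 0.11 and 1.83 ± 0.11), but against ribosomal protein mRNAs it was 0.12 and not called at 4 h and −0.36 at 24 h. DIS3L rose after YKL-5-124 for 24 h (0.39 ± 0.13, adjusted p = 0.0449), a call lost with no filter (0.39), with only the groups compared (0.44) and without DMSO replicate 1 (0.41), DMSO replicate 3 (0.32), YKL-5-124 24 h replicate 2 (0.40) or YKL-5-124 24 h replicate 3 (0.30).

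Of 14 tested regulators that bind AU-rich, stem-loop or related elements, 2 rose and 5 fell after THZ1 for 4 h, 3 rose and 8 fell after THZ1 for 24 h, and 1 rose and 1 fell after YKL-5-124 for 24 h. ZC3H12A, the stem-loop endonuclease called regnase-1, averaged 22.8 ± 2.57 CPM after THZ1 for 24 h (3.81 ± 0.23, adjusted p = 6.23e-10) and 6.02 ± 1.18 CPM after YKL-5-124 for 24 h (1.89 ± 0.22, adjusted p = 3.93e-05, edgeR), against 1.62 ± 0.304 in DMSO. Its paralog ZC3H12C fell after THZ1 at 4 h (−1.71 ± 0.21) and 24 h (−2.67 ± 0.23). ELAVL1, the stabilising protein HuR, rose after THZ1 for 4 h (0.32 ± 0.10). That call was lost with library totals (0.06), no filter (0.32), only the groups compared (0.32) and without DMSO replicate 3 (0.30) or THZ1 4 h replicate 3 (0.24), and the value was −0.19 against ribosomal protein mRNAs. HNRNPD, also called AUF1, fell after YKL-5-124 for 24 h (−0.39 ± 0.11). That call was lost with upper-quartile factors (−0.29), library totals (−0.24), only the groups compared (−0.34) and without DMSO replicate 2 (−0.31), DMSO replicate 3 (−0.38), YKL-5-124 24 h replicate 1 (−0.34) or YKL-5-124 24 h replicate 2 (−0.35), and the value was 0.20 against ribosomal protein mRNAs.

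Of 16 genes for kinases, phosphatases and 14-3-3 proteins that act on ZFP36 proteins, 7 rose and 4 fell after THZ1 for 4 h, 6 rose and 7 fell after THZ1 for 24 h (2 and 12 with library totals, 0 and 15 against ribosomal protein mRNAs), and 1 rose and 1 fell after YKL-5-124 for 24 h (13 and 1 against ribosomal protein mRNAs). MAPK14, the kinase p38 alpha upstream of ZFP36 phosphorylation, averaged 12.6 ± 0.600 CPM after THZ1 for 24 h, against 93.8 ± 0.861 in DMSO (−2.90 ± 0.11, adjusted p = 6.96e-12, edgeR). MAPKAPK3, a kinase downstream of p38, fell after YKL-5-124 for 24 h (−1.13 ± 0.11). PPP2R1A, a scaffold of the phosphatase PP2A, rose after THZ1 for 24 h (2.36 ± 0.09) and was 0.17 and not called against ribosomal protein mRNAs; the 14-3-3 gene YWHAB rose at 4 h (0.57 ± 0.09) and was 0.05 and not called there. SFN, another 14-3-3 gene, fell after THZ1 for 4 h (−0.64 ± 0.14). It rose after YKL-5-124 for 24 h (0.44 ± 0.14), which was lost without DMSO replicate 1 (0.42), DMSO replicate 2 (0.41), DMSO replicate 3 (0.48), YKL-5-124 24 h replicate 1 (0.38) or YKL-5-124 24 h replicate 2 (0.38).

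Of 20 tested mRNAs known as targets of the ZFP36 family, 1 rose and 10 fell after THZ1 for 4 h (median −1.06), and 8 rose and 10 fell after THZ1 for 24 h (median −0.39). After YKL-5-124 0 rose and 3 fell at 4 h (median −0.46; 0 and 7 at an unadjusted p under 0.05, 0 and 4 with DESeq2), and 7 rose and 4 fell at 24 h (median 0.47; 11 and 0 against ribosomal protein mRNAs). JUN, an AP-1 subunit, averaged 5.60 ± 1.53 CPM after THZ1 for 4 h, against 125 ± 19.1 in DMSO (−4.49 ± 0.21, adjusted p = 1.19e-09, edgeR). CXCL3, a chemokine, averaged 23.5 ± 6.04 CPM after THZ1 for 24 h, against 0.335 ± 0.0569 in DMSO, where it had 7 to 9 counts per library (6.11 ± 0.43, adjusted p = 3.53e-09, edgeR). TNF, the classical ZFP36 target, had 20 to 72 counts per library after YKL-5-124 for 24 h and 1 to 9 in DMSO (3.53 ± 0.68, adjusted p = 0.00187, edgeR). BIRC3 fell most after THZ1 for 24 h (−1.92 ± 0.39), and HIF1A, the one riser at THZ1 4 h (0.36 ± 0.10), was 0.10 and not called with library totals and −0.14 against ribosomal protein mRNAs. LIF fell after YKL-5-124 for 4 h (−1.21 ± 0.22, adjusted p = 0.0229). That call was lost against ribosomal protein mRNAs (−1.31), with only the groups compared (−1.21) and without DMSO replicate 1 (−1.22), DMSO replicate 2 (−1.20), DMSO replicate 3 (−1.20), YKL-5-124 4 h replicate 2 (−1.25) or YKL-5-124 4 h replicate 3 (−1.08). PIM1 fell after YKL-5-124 for 24 h (−0.85 ± 0.23), which was lost against ribosomal protein mRNAs (−0.27) and without DMSO replicate 1 (−0.77), DMSO replicate 3 (−0.80) or YKL-5-124 24 h replicate 3 (−0.74).

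Of 7 tested partners of BTG and TOB proteins outside deadenylation, 0 rose and 3 fell after THZ1 for 4 h (1 and 3 at an unadjusted p under 0.05 and with DESeq2), 2 rose and 5 fell after THZ1 for 24 h, and 0 rose and 1 fell after YKL-5-124 for 24 h (the same at an unadjusted p under 0.05 and with DESeq2). NR1D1, a nuclear receptor of the clock, had 72 to 148 counts per library after THZ1 for 24 h and 0 to 6 after THZ1 for 4 h, against 13 to 35 in DMSO. It rose at 24 h (3.64 ± 0.45, adjusted p = 2.58e-06) and fell at 4 h (adjusted p = 0.00208, edgeR). NR1D1 met the minimum mean for naming through the THZ1 24 h libraries (12.4 CPM, against 0.981 in DMSO), so the size of its rise is uncertain. SMAD1, a BMP pathway effector, fell most after THZ1 for 24 h (−3.09 ± 0.22). HOXB9, a known BTG2 partner, fell after YKL-5-124 for 24 h (−0.80 ± 0.16) and was −0.22 and not called against ribosomal protein mRNAs. In the 6 lists other than CCR4-NOT and the target mRNAs, 0 genes were called in either direction after YKL-5-124 for 4 h. At an unadjusted p under 0.05 these 6 lists held between 0 and 1 genes in each direction, and DESeq2 called 1 of the AU-rich and stem-loop regulators lower and 0 in the others.

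**Figure D5:**
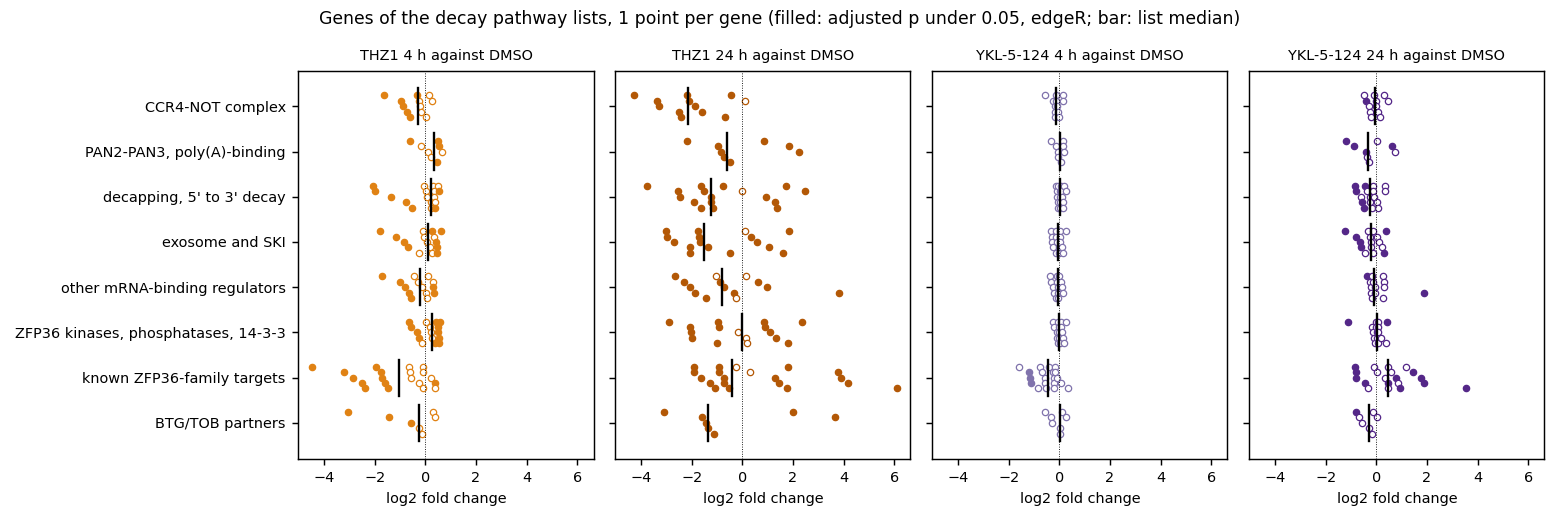
Log2 fold change against DMSO of every tested gene of the 8 decay pathway lists in the 4 treated groups; filled points have an adjusted p under 0.05 and bars mark the list median. After THZ1 for 24 h the CCR4-NOT row lies mostly left of 0 with its median at −2.15, and after YKL-5-124 for 4 h the filled points are 3 target mRNAs.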

How the data were processed

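Total RNA from PATU-8988T cells was sequenced in 15 libraries. The authors deposited whole-number counts for each Ensembl gene, unscaled, beside its exonic length. Among the tools that the submitters' processing notes name are featureCounts 1.5.0-p3, STAR 2.6.1d and DESeq2 1.24.0, with GRCh38 as the build. How strand and multi-mapped reads were handled is not stated. The table had 0 columns of no sample and 0 rows without a gene ID.

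Groups came from the sample labels. Of 58676 genes, 30731 were detected and 14461 were kept by filterByExpr at a minimum count of 10 and a minimum total of 15; these hold 99.9% of counts. The test was the quasi-likelihood F test in edgeR 4.0.16 under R 4.3.3, on all 15 libraries with group as factor, TMM scaling and Benjamini-Hochberg adjustment over all genes tested, threshold 0.05. On simulated data for THZ1 4 h against DMSO it recovered 11.9% of 67 changes of 1.5-fold and 46.3% of 67 changes of 2-fold. It recovered 80.3% of 66 changes of 4-fold, and 5.15% of its calls were false. The simulation changed only 67, 67 and 66 of 14364 genes, whereas 2439 rose and 3630 fell in the data for that comparison. The adjusted threshold was therefore stricter in the simulation, and these shares do not give the power in the data. Other comparisons were not simulated. A change that did not pass may still have been missed. Alternatives were 4 other scalings, no filter, DESeq2 1.42.0, only the groups compared, the replicate number as a block, each library's slope on transcript length as a covariate, and leaving out each library. That slope was fitted to the differences from the group means in these same libraries. The covariate can therefore absorb spread between replicates by its construction, and its calls are not separate support. Replicates differed from each other beyond counting error, with chi-square 4.26 to 82.4 times its degrees of freedom. Log2 CPM used a prior count of 2.

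The 8 genes and the lists were chosen with earlier results of these data known. Of each list the called gene with the largest rise and the one with the largest fall were named per comparison with DMSO, at a mean of at least 1 CPM. That mean included treated libraries, so a gene low in DMSO could pass through them. CXCL3 (0.335 CPM in DMSO), TNF (0.160 CPM in DMSO) and NR1D1 (0.981 CPM in DMSO) are such genes, and the size of their rises is uncertain. For each of the 8 genes the 2 most alike genes at a mean of at least 5 CPM were named. Upstream sequences are from RefSeq (GRCh38.p14), in which 7 of the 8 genes matched, all but ZFP36L2, and transcript features from GENCODE 29, taking for each gene the APPRIS principal coding transcript or, among equals, the longest.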

Additional observations from a re-analysis of the deposited data

Results flagged for a closer look

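For 5 of the 8 genes the change between 4 h and 24 h differed between THZ1 and YKL-5-124 by the interaction test of edgeR, given as the THZ1 change minus the YKL-5-124 change on the log2 scale. The difference was 4.00 for ZFP36 (adjusted p = 2.08e-08), 2.45 for ZFP36L2 (adjusted p = 0.000289), 1.16 for BTG2 (adjusted p = 0.00846) and 0.98 for TOB2 (adjusted p = 0.00525). Against ribosomal protein mRNAs BTG2 and TOB2 turned to −1.16 and −1.41, and ZFP36L2 was 0.06 and not called, and with library totals BTG2 and TOB2 were 0.13 and −0.059 and not called. For TOB1 it was −0.70 (adjusted p = 0.0256), which was not called with RLE factors (−0.47), upper-quartile factors (−0.38) or DESeq2 (−0.47). The share of all tested genes called in the interaction was 26.6% higher and 31.0% lower, and no cause was tested.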

How the results depend on the processing

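The number of the 8 genes called depended mainly on the scaling. At THZ1 24 h against DMSO 1 was higher and 6 lower with library totals, and 1 higher and 7 lower against ribosomal protein mRNAs. Over all genes the split moved too, to 2266 higher and 9384 lower, and to 566 and 11743. Against ribosomal protein mRNAs 5 were higher after YKL-5-124 for 24 h (5291 of all genes called), and 5 between its times (6907 of all genes). THZ1 against YKL-5-124 at 24 h gave 1 higher and 5 lower with library totals, and 0 higher and 7 lower against ribosomal protein mRNAs. Over all genes the counts were 1998 and 9927, and 273 and 12953. THZ1 24 h against 4 h gave 3 higher and 1 lower with library totals, and 2 higher and 3 lower against ribosomal protein mRNAs. Over all genes the counts were 2292 and 8175, and 750 and 10393. The interaction gave 7 higher and 0 lower with RLE factors, upper-quartile factors and DESeq2. It gave 2 higher and 1 lower with library totals, and 1 higher and 5 lower against ribosomal protein mRNAs. Over all genes it was positive for 4484 and negative for 3770 with RLE factors, 4706 and 3536 with upper-quartile factors and 4640 and 3860 with DESeq2. With library totals the counts over all genes were 1558 and 7917, and against ribosomal protein mRNAs 195 and 11377.

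For YKL-5-124 at 4 h 2 were lower with no filter (190 of all genes called) and 1 was higher and 2 lower with the length covariate (952). All genes called there numbered 377 with DESeq2 and 15 with only the groups compared, against 75. At YKL-5-124 24 h 1 was higher with no filter, and 1 lower with the length covariate (6008 of all genes). That covariate also gave 1 higher between compounds at 4 h (7666) and 5 higher between the times of YKL-5-124 (5971). It was drawn from the spread within groups of the same libraries, so these added calls are not separate support.

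Replicate numbers paired the samples only in part. Same-numbered libraries correlated at −0.47 to 0.53, over 0.1 in 20 of 30 pairs, and 8 of 15 libraries correlated best with their own number. The replicate block gave 140 called genes at YKL-5-124 4 h against 75, and 1 of the 8 higher between compounds at 4 h (BTG3 0.38); in the interaction it called ZFP36L1 (1.12) and BTG3 (0.51).

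Leaving out 1 library gave 8 to 72 called genes at YKL-5-124 4 h, 1932 to 3254 at YKL-5-124 24 h with 1 to 2 of the 8 higher, and 0 to 1 lower in the interaction.

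Among values called under at least 1 of the settings compared, those that changed sign were, against ribosomal protein mRNAs, BTG3 (−0.31), ELAVL1 (−0.19) and HIF1A (−0.14) at THZ1 4 h, ZFP36L2 (−1.76), BTG3 (−1.52) and TTC37 (−0.36) at THZ1 24 h, and BTG3 (0.34), CNOT2 (0.19) and HNRNPD (0.20) at YKL-5-124 24 h. Between compounds at 24 h they were ZFP36L2 (−1.93) and BTG3 (−1.86), between THZ1 times ZFP36L1 (−0.22), BTG1 (−0.72), BTG3 (−1.21), TOB1 (−1.66) and TOB2 (−0.69), between YKL-5-124 times BTG3 (0.60), and in the interaction BTG1 (−1.79), BTG2 (−1.16), BTG3 (−1.81) and TOB2 (−1.41). With library totals they were BTG3 at THZ1 24 h (−0.47), ZFP36L2 (−0.40) and BTG3 (−0.39) between compounds at 24 h, TOB1 between THZ1 times (−0.84) and TOB2 in the interaction (−0.059). Values called under neither setting changed sign too. They were with library totals BTG3 at THZ1 4 h (−0.052), ZFP36L2 at THZ1 24 h (−0.64), BTG3 between the times of THZ1 (−0.42) and of YKL-5-124 (0.11), and BTG1 (−0.48) and BTG3 (−0.53) in the interaction. Against ribosomal protein mRNAs they were ZFP36L1 (0.23) and ZFP36L2 (0.17) at YKL-5-124 24 h, BTG3 between compounds at 4 h (−0.055) and ZFP36L1 in the interaction (−1.34). ZFP36L1 at THZ1 24 h was 0.0038 with RLE factors, 0.059 with upper-quartile factors and 0.0041 with DESeq2, and between compounds at 24 h 0.29 with RLE factors, 0.27 with upper-quartile factors, 0.29 with DESeq2 and 0.13 with only the groups compared. TOB1 between THZ1 times was −0.077 with no filter, and BTG3 between YKL-5-124 times 0.0067 with upper-quartile factors.

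Leaving out 1 library gave ZFP36L1 −0.55 to 0.11 at THZ1 24 h, −0.51 to 0.15 at YKL-5-124 24 h and −0.11 to 0.074 between compounds at 24 h, with the positive ends of the first pair without DMSO replicate 2. It gave ZFP36L2 −0.63 to 0.026 at YKL-5-124 24 h, BTG1 −0.17 to 0.026 at YKL-5-124 4 h and TOB1 −0.095 to 0.18 between THZ1 times. Between YKL-5-124 times it gave BTG3 −0.22 to 0.13 and TOB2 −0.14 to 0.15.

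Of 1128 values of the 8 genes under these alternatives, 982 kept direction and call and 52 changed sign, 21 of them called under at least 1 of the settings compared. The cause of the other changes was not tested. BTG2 had at most 14 counts per library after THZ1 for 4 h, which limits its precision.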
